A study of Mus musculus with 6 samples.

Results

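The genes described here encode the proteasome: its core and cap subunits, the inducible subunits and activator of the immunoproteasome, the other activators, and the chaperones that assemble it. They were taken as every protein-coding row whose symbol was Psma, Psmb, Psmc, Psmd, Psme or Psmg followed by a number, which gave 47 of the 55401 gene rows in the count table. By role these were 16 subunits of the 20S core, 17 of the 19S cap (6 ATPases and 11 non-ATPases) and 5 of the immunoproteasome. The rest were 2 other activators and 7 assembly chaperones. The core genes were 8 of the alpha ring, among them Psma8 of the testis, and 8 grouped as the constitutive beta ring. Among these 8 beta genes was Psmb11 of the thymus.

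Proteins tagged with ubiquitin are unfolded by the 19S cap and cut inside the 20S core, a barrel of outer alpha rings and inner beta rings. In the constitutive core the cutting is done by PSMB6, PSMB7 and PSMB5. Interferon-gamma and other inflammatory signals induce PSMB9, PSMB10 and PSMB8, which take the places of those subunits in newly built cores, and PSME1 and PSME2, which form the PA28 activator. This immunoproteasome is abundant in immune cells and is best known for making peptides for class I antigen presentation, while in heart muscle the constitutive proteasome clears damaged and misfolded contractile proteins.

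RNA was counted gene by gene in infarcted mouse hearts, that is, hearts that have lost muscle to a blocked coronary artery. Mild cold at 16 °C for 7 days (3 libraries) was compared with room temperature at 22 °C (3 libraries), and both groups had had an infarct. The labels used here give no strain, age, sex, infarct method or time since the infarct, and no length of stay at room temperature. They number the replicates without saying whether each came from a separate animal, and p-values therefore reflect variation among libraries that may be technical. Library totals were 65285901, 43163355 and 42139438 counts in mild cold 1 to 3, and 41619023, 41920592 and 63946671 counts in room temperature 1 to 3. The labels call the tissue whole heart, but the atrial transcripts Myl7 and Sln held 28312 and 9832 counts in room temperature 1 and at most 18 and 6 in the other libraries. Mitochondrially encoded genes took 34.4% to 41% of the counts in mild cold and 26.2% to 31.6% at room temperature.

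The promoters of the catalytic subunits Psmb5 and Psmb6, and of the inducible subunits Psmb8 and Psmb9 that replace them, are shown because the constitutive and the inducible subunits are set side by side throughout. NRF1, encoded by Nfe2l1, drives proteasome genes through antioxidant response elements, while the inducible subunits answer to interferon. The 250 bases before the RefSeq start are printed (build GRCm38.p6, in the gene's direction), at chr14:54617996-54618245 on the minus strand for Psmb5, chr11:70525107-70525356 on the plus strand for Psmb6, chr17:34197945-34198194 on the plus strand for Psmb8 and chr17:34187331-34187580 on the minus strand for Psmb9. Capitals mark a match to the antioxidant response element TGACNNNGC.
Psmb5: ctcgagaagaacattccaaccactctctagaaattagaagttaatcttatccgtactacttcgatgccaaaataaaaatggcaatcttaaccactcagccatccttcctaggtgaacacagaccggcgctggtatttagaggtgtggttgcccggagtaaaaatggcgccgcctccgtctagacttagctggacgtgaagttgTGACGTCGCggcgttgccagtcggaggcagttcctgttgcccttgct
Psmb6: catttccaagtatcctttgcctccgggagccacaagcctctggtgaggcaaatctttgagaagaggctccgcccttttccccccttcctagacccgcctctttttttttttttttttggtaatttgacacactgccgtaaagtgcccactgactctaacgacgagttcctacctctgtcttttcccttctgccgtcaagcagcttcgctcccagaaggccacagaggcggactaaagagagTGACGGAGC
Psmb8: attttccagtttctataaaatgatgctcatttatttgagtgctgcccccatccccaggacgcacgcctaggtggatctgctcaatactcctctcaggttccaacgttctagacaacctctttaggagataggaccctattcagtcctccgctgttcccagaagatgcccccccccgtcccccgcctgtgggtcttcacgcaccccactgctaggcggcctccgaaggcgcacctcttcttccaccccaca
Psmb9: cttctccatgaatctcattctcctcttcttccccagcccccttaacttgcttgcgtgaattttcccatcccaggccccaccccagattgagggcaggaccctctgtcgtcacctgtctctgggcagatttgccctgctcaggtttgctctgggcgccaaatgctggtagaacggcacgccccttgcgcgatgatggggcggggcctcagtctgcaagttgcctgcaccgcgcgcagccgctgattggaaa
Both constitutive promoters held 1 match. Neither inducible promoter held a match to it or to the interferon element GAAANNGAA, which says only that these letters are not in this window. Windows from 250 bases before to 50 after the start were searched on both strands for both elements. Of 39 proteasome genes with a window, 6 (15.4%) held the antioxidant element, against 14% of the 27025 genes in the table, so the share was near the background. Besides Psmb5 and Psmb6 these were Psmc6, Psmd9, Psmd12 and Psme4. The interferon element was in 7 of the 39 (17.9%), against 9.76% of all genes. Among the 5 immunoproteasome genes it was in the window of Psme1 alone. The others that held it were Psmc2, Psmd4, Psmb3, Psmb4, Psmd9 and Psmg4.

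Levels were compared between genes per length, as TMM-scaled RPKM. CPM is a gene's counts per 1000000 of the library total after TMM scaling (trimmed mean of M-values), and RPKM divides it by the length in kilobases of the gene's longest protein-coding transcript. The order of the levels depends on the length used. Apart from Psma8, the tested constitutive subunits had means over the 6 libraries between 24.4 RPKM (Psmd11, a cap subunit) and 92.9 RPKM (Psma6, an alpha subunit). Psmc3, a cap ATPase, and Psmb6 followed Psma6 with 91 and 89.9 RPKM, and the ranges of these 3 over the libraries overlapped. With the union of all exons as the length Psma6 was still highest with 78.5 RPKM, but Psmb6 was at 38.3 RPKM, behind Psmc1 with 68 RPKM and Psmc3 with 63.5 RPKM. Below the constitutive subunits, with the longest transcript, stood Psmb10 with 20.1 RPKM, Psmb8 with 6.2 RPKM and Psmb9 with 5.05 RPKM. With exon-union lengths Psmb8 and Psmb9 were still below all 31 of these subunits, while Psmb10 with 15.4 RPKM was above 4 of them (Psmd11, Psmd3, Psmd13 and Psmd1). The assembly chaperones lay between 1.8 RPKM (Psmg3) and 14.3 RPKM (Psmg2). The PA28 genes were on the level of the core, with 53.5 RPKM for Psme1 and 39.1 RPKM for Psme2. Psma8, an alpha subunit known from the testis, was at 0.487 RPKM. Psmb11, the catalytic subunit of the thymus, had 0, 0 and 0 counts in mild cold, against 8, 0 and 2 counts at room temperature, and was the 1 member removed by the filter on low counts. A library's floor of 3 counts was 0.0408 to 0.0804 CPM.

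**Figure D1:**
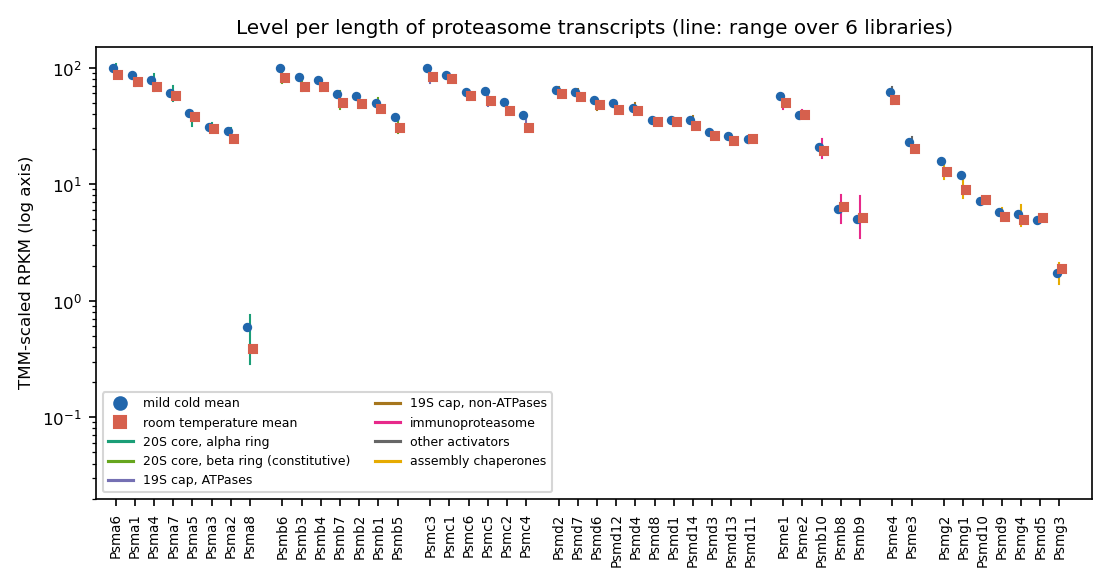
Level per length of the 46 tested proteasome genes on a log axis in TMM-scaled RPKM (longest protein-coding transcript), ordered by class and level; circles are the mild cold mean and squares the room temperature mean (3 libraries each), and lines span the 6 libraries. Psmb8 and Psmb9 lie near 5 to 6 RPKM with the longest lines of the immunoproteasome, while the means of the constitutive core and cap genes over all 6 libraries lie between 24.4 and 92.9 RPKM, apart from Psma8.

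Proteasome genes in mild cold hearts were at a median of 1.12-fold of room temperature over the 46 tested with TMM scaling, but no single gene passed the test. The groups overlapped in 27 of the 46, among them 6 of 15 core genes, 9 of 17 cap genes and all 5 immunoproteasome genes. Over all genes tested they overlapped in 12552 of 16757. No member passed the threshold of 0.05 on the adjusted p of edgeR's quasi-likelihood test (0 of 46, as for 0% of all 16757 genes tested), and the smallest adjusted p of a member was 0.108 (Psmc4). With TMM scaling 40 of 46 members had a positive log2 fold change and the median over members was 0.16, against -0.02 over all genes. With library totals alone 12 were positive and 34 negative, because that scaling moved the median of all genes to -0.27, and under both scalings the same number, 41 of 46, lay above the median of all genes. Every log2 fold change has mild cold on top. In these bulk samples fewer cells of a type and less RNA per cell cannot be told apart.

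At an unadjusted p under 0.05, 13 members (28.3%) were higher in mild cold, where 9.11% of all tested genes were, and 0 were lower, where 10.6% of all genes were. The 13 were Psma2, Psmb2, Psmb3, Psmb5, Psmb6, Psmb7, Psmc2, Psmc3, Psmc4, Psmc5, Psmd12, Psmg1 and Psmg2. For 19 members (41.3%) every mild cold library was above every room temperature library, against 12% of all genes, and for 0 members every one was below, against 13.1%. With library totals 0 members were higher at that p, where 2.3% of all genes were, and 2 were lower (4.35%), where 27.1% of all genes were. The DESeq2 Wald test called Psmc4 (adjusted p = 0.0084) and Psmg1 (adjusted p = 0.045), 2 of 46 members, where it called 9% of 15715 genes. The count of 13 rested on the libraries used: it was 5, 6 and 6 without mild cold 1, 2 or 3, and 2, 22 and 5 without room temperature 1, 2 or 3. Without room temperature 1 the share of members was 4.35%, below the 6.8% of all genes, and without room temperature 2 it was 47.8%, against 11.1%. In the other 4 cases it was 10.9% or 13%, against 5.92% to 8.8% of all genes. The median log2 fold changes without that library, the one with atrial transcripts, were 0.18 for the core, 0.10 for the cap and 0.08 for the immunoproteasome. The number of members higher without overlap ran from 19 to 32 when 1 library was left out, which is an easier condition that 15.8% to 19.3% of all genes then met, and at most 1 member was then lower without overlap. For 40 of 46 members the 95% interval of the fold change lay within 1.5-fold in either direction, as it did for 6708 of all 16757 genes tested. The median SE of the log2 fold change was 0.098 over the members and 0.19 over all genes.

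**Figure D2:**
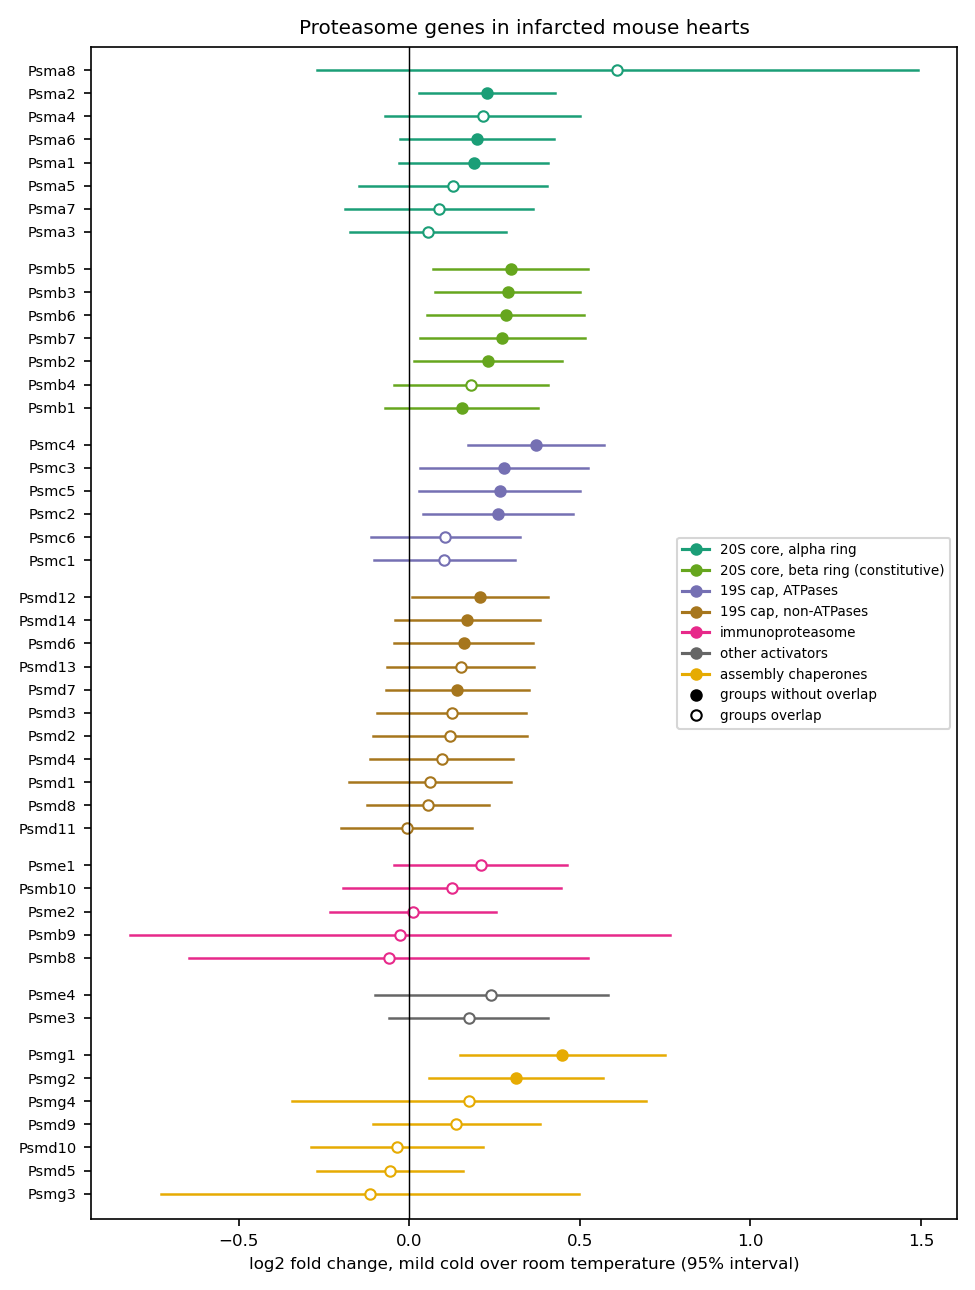
Log2 fold change (mild cold over room temperature) of each tested proteasome gene with its 95% interval from edgeR, by class; filled points mark genes whose groups do not overlap. Of 46 points 40 lie above 0, with Psmc4 at 0.37 and Psmg1 at 0.45, and Psmb8 and Psmb9 lie near 0 with wider intervals than every core gene but Psma8.

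In the alpha ring, which gates entry to the core, all 8 genes had positive log2 fold changes with TMM scaling, with a median of 0.19 (-0.06 with library totals, which is 0.22 above the median of all genes there). 1 of the 8 (12.5%) was at an unadjusted p under 0.05, where 9.11% of all tested genes were higher. 3 (37.5%) did not overlap between the groups, where 12% of all genes were higher without overlap. Psma2 was at 79.2, 88.5 and 81.7 CPM in mild cold 1 to 3, against 67.8, 73 and 72.3 CPM in room temperature 1 to 3. Its groups did not overlap, and the log2 fold change was 0.23 (SE 0.09, edgeR adjusted p = 0.212). Psma6 was at 97.9, 111.9 and 100.6 CPM in mild cold, against 86.1, 96.8 and 87.6 CPM at room temperature. The lowest mild cold library stood just above the highest room temperature library, with a log2 fold change of 0.20 (SE 0.10, edgeR adjusted p = 0.305). Psma1 was at 104.9, 106.4 and 99.99 CPM in mild cold, against 90.3, 98.7 and 84.1 CPM at room temperature, again with a narrow gap (log2 fold change 0.19, edgeR adjusted p = 0.311). Psma3, Psma4, Psma5, Psma7 and Psma8 overlapped, with log2 fold changes from 0.05 (Psma3) to 0.61 (Psma8). The value for Psma8 came from 20 to 79 counts a library and had an interval from -0.27 to 1.49.

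The constitutive beta ring, which holds the cutting sites, had a median log2 fold change of 0.27 over 7 tested genes (0.03 with library totals, 0.30 above the median of all genes there). All 7 values were positive with TMM scaling. 5 (71.4%) were at an unadjusted p under 0.05, where 9.11% of all tested genes were higher. 6 (85.7%) did not overlap between the groups, where 12% of all genes were higher without overlap. With library totals 0 members of the family were higher at that p. Psmb5, which carries the chymotrypsin-like site, was at 34.1, 33.2 and 33.2 CPM in mild cold, against 24.8, 30.1 and 27 CPM at room temperature. The mild cold libraries lay within 1 CPM of each other and above all 3 room temperature libraries (log2 fold change 0.30, SE 0.10, edgeR adjusted p = 0.171). Psmb6, with the caspase-like site, was at 78.6, 80.7 and 76.8 CPM in mild cold, against 62.4, 72.6 and 59.3 CPM at room temperature. Its groups did not overlap either (log2 fold change 0.28, SE 0.10, edgeR adjusted p = 0.192). Psmb7, with the trypsin-like site, was at 68.9, 66.3 and 72.7 CPM in mild cold, against 51.6, 64.5 and 56 CPM at room temperature. Room temperature 2 came within 2 CPM of the lowest mild cold library, and the log2 fold change was 0.27 (SE 0.10, edgeR adjusted p = 0.215). Psmb3, a beta subunit without a cutting site, was at 63.2, 65.6 and 63.7 CPM in mild cold, against 48, 57.3 and 52.3 CPM at room temperature, with no overlap (log2 fold change 0.29, SE 0.09, edgeR adjusted p = 0.164). Psmb1, Psmb2 and Psmb4, also without a cutting site, had log2 fold changes of 0.15, 0.23 and 0.18, and Psmb4 was the 1 tested gene of the ring whose groups overlapped.

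Among the cap ATPases, which unfold substrates and thread them into the core, all 6 genes had positive log2 fold changes with TMM scaling, with a median of 0.26 (0.01 with library totals, 0.29 above the median of all genes there). Psmc2, Psmc3, Psmc4 and Psmc5 were at an unadjusted p under 0.05 and without overlap. That was 66.7% of the class on each count, where 9.11% and 12% of all tested genes were higher. Psmc1 and Psmc6 overlapped with log2 fold changes of 0.10 and 0.11. Psmc4 was at 56.3, 57.8 and 54.2 CPM in mild cold, against 41.7, 46.8 and 41.8 CPM at room temperature. This was the smallest p of all members, with a log2 fold change of 0.37 (SE 0.09, edgeR adjusted p = 0.108), and every mild cold library exceeded every room temperature library by more than 7 CPM. Psmc2 was at 93.7, 90.9 and 84.5 CPM in mild cold, against 72.5, 81.6 and 70.7 CPM at room temperature. Psmc5 was at 81.5, 83.1 and 82.7 CPM in mild cold, against 61.2, 76.5 and 68 CPM at room temperature. Both had a log2 fold change of 0.26 or 0.27 (edgeR adjusted p = 0.2 and 0.214), and in both room temperature 2 was the highest of its group.

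The non-ATPases of the cap, which recognise and strip ubiquitin and hold the lid together, had a median of 0.12 over 11 genes (-0.12 with library totals, 0.15 above the median of all genes there). 10 of the 11 were positive with TMM scaling. 1 (9.09%) was at an unadjusted p under 0.05, near the 9.11% of all tested genes that were higher. 4 (36.4%) did not overlap, where 12% of all genes were higher without overlap. Psmd12, a lid scaffold subunit, was at 101.7, 95.8 and 94.1 CPM in mild cold, against 80.8, 88.8 and 83.1 CPM at room temperature (a log2 fold change of 0.21, SE 0.09, edgeR adjusted p = 0.24). Psmd14, the deubiquitinase that frees ubiquitin from substrates, was at 52.8, 58.9 and 53.1 CPM in mild cold, against 47.5, 52.4 and 46.5 CPM at room temperature. Its gap between the groups was under 1 CPM (log2 fold change 0.17, edgeR adjusted p = 0.343). Psmd6, another lid subunit, was at 73.6, 73.7 and 73.4 CPM in mild cold, against 60.5, 70.7 and 66.4 CPM at room temperature (a log2 fold change of 0.16, edgeR adjusted p = 0.354). Psmd7, a partner of Psmd14 in the lid, was the remaining gene without overlap, with a log2 fold change of 0.14. The large base scaffolds Psmd1 and Psmd2 had log2 fold changes of 0.06 and 0.12, and the ubiquitin receptor Psmd4 had 0.09, each with overlap. The lowest value was Psmd11 with -0.01 and an interval from -0.20 to 0.18.

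The immunoproteasome genes had a median log2 fold change of 0.01 over 5 genes (-0.25 with library totals, 0.02 above the median of all genes there), against 0.22 over the 15 tested core genes and 0.14 over the 17 cap genes. The difference between these medians was not tested, and the order of the immunoproteasome and the cap changed when some single libraries were left out. None of the 5 was at an unadjusted p under 0.05 in either direction, where 9.11% of all tested genes were higher and 10.6% lower. All 5 overlapped between the groups, as most genes did (12552 of the 16757 tested). Psmb8, the inducible counterpart of Psmb5, was at 7.53, 13 and 9.13 CPM in mild cold, against 12.3, 7.6 and 11 CPM at room temperature. Mild cold 1 and room temperature 2 were low and mild cold 2 and room temperature 1 were high, and the log2 fold change was -0.06 (SE 0.25, 95% interval -0.65 to 0.53, edgeR adjusted p = 0.92). Psmb9, the counterpart of Psmb6, was at 4.94, 10.7 and 4.69 CPM in mild cold, against 6.79, 5.63 and 8.23 CPM at room temperature. Mild cold 2 held more than the other mild cold libraries together, and the log2 fold change was -0.03 (SE 0.34, 95% interval -0.82 to 0.76, edgeR adjusted p = 0.976). As folds, these intervals run from 0.639 to 1.44 for Psmb8 and from 0.567 to 1.7 for Psmb9. Psmb10, the counterpart of Psmb7, was at 24.9, 32.1 and 25.4 CPM in mild cold, against 21.9, 27.1 and 26.4 CPM at room temperature, with mild cold 2 the highest of all (log2 fold change 0.13, SE 0.14, edgeR adjusted p = 0.656).

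The PA28 activator is built from both PSME1 and PSME2. Psme1 was at 64.9, 65.7 and 60.7 CPM in mild cold, against 49.3, 63 and 53.3 CPM at room temperature. Room temperature 2 was within the mild cold range and the other room temperature libraries were below it, with a log2 fold change of 0.21 (SE 0.11, edgeR adjusted p = 0.334). Psme2 was at 36.2, 41.5 and 35.7 CPM in mild cold, against 41.3, 35.4 and 35.8 CPM at room temperature, which is a nearly complete overlap (log2 fold change 0.01, SE 0.10, edgeR adjusted p = 0.968). The immunoproteasome median depended on single libraries: it was 0.16, -0.06 and 0.18 without mild cold 1, 2 or 3, and 0.08, -0.01 and 0.12 without room temperature 1, 2 or 3. The cap median was 0.14, 0.13 and 0.16 without mild cold 1, 2 or 3, and 0.10, 0.21 and 0.13 without room temperature 1, 2 or 3. For the core these were 0.24, 0.17 and 0.24, and 0.18, 0.27 and 0.18. The immunoproteasome median was thus above that of the cap without mild cold 1 or 3, and below that of the core each time.

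**Figure D3:**
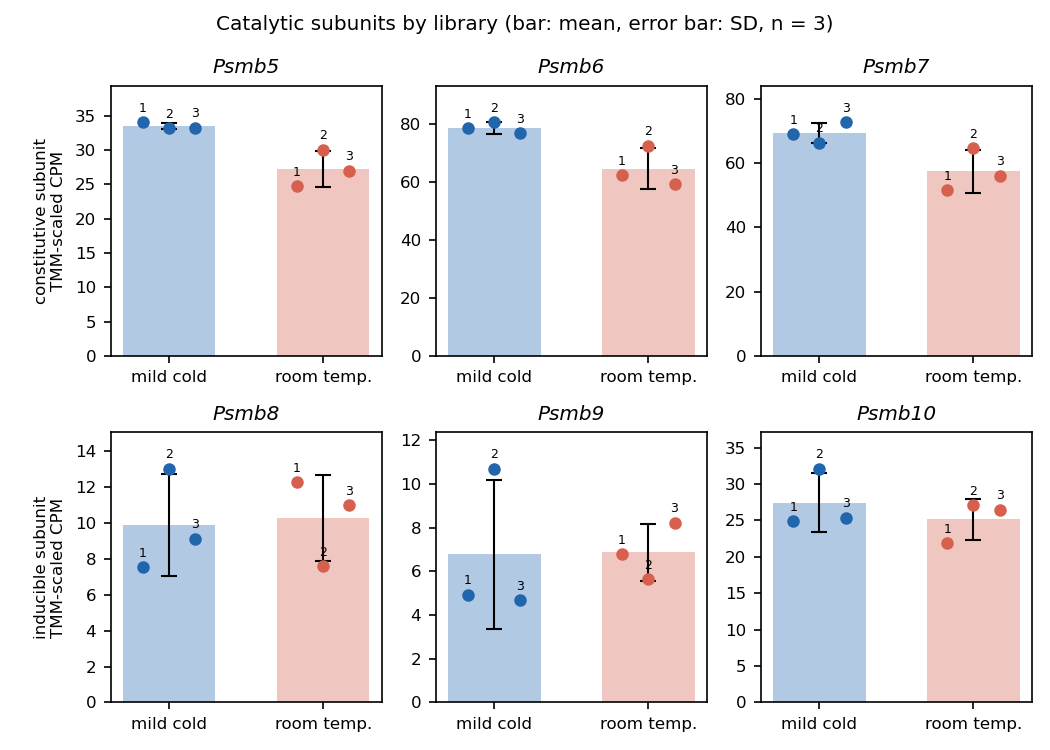
TMM-scaled CPM of the constitutive catalytic subunits (top row) and the inducible subunit that replaces each (bottom row) by library, with the mean as a bar and the SD as an error bar (3 libraries a group, numbered). The mild cold points of Psmb5, Psmb6 and Psmb7 all lie above the room temperature points, while those of Psmb8, Psmb9 and Psmb10 are spread across them.

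The ratio of each inducible subunit to its constitutive partner within a library does not depend on the scaling of libraries. Per length, Psmb8 was at 12.2, 21.7 and 15.2% of Psmb5 in mild cold, against 27.4, 14 and 22.5% at room temperature. Psmb9 was at 3.71, 7.82 and 3.6% of Psmb6 in mild cold, against 6.42, 4.58 and 8.19% at room temperature. Psmb10 was at 31.9, 42.8 and 30.9% of Psmb7 in mild cold, against 37.5, 37.1 and 41.8% at room temperature. All 3 ratios overlapped between the groups, mild cold 2 being the highest of its group in each and room temperature 2 the lowest of its group in each. The differences of the mean log2 ratio were -0.37, -0.40 and -0.15, given without a test, and they ran from -0.64 to -0.16, from -0.77 to -0.20 and from -0.30 to -0.07 when 1 library was left out. The levels of the ratios depend on the length used for each gene. Over the 6 libraries Psmb8 was at 18% of Psmb5 with the longest coding transcript, 8.69% with the union of all exons and 32.7% in counts without a length. For Psmb10 and Psmb7 these were 36.7, 83.3 and 41.5%, and for Psmb9 and Psmb6 5.42, 4.69 and 9.17%.

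The remaining activators overlapped between the groups. Psme4, which encodes PA200, the activator that opens the core without ATP, was at 443.7, 349.8 and 418.2 CPM in mild cold, against 315.2, 396.5 and 313.6 CPM at room temperature. Room temperature 2 stood inside the mild cold range (log2 fold change 0.24, SE 0.15, edgeR adjusted p = 0.404). Psme3, the nuclear PA28-gamma, was at 67.5, 57.2 and 57.1 CPM in mild cold, against 51.9, 57.5 and 51.9 CPM at room temperature, where mild cold 1 was high and the rest lay close together (log2 fold change 0.17, edgeR adjusted p = 0.381).

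Among the 7 assembly chaperones, 4 had positive and 3 negative log2 fold changes with TMM scaling, with a median of 0.14 (-0.12 with library totals, 0.16 above the median of all genes there). The pair PSMG1 and PSMG2, which builds the alpha ring, had the smallest p-values of the class. Psmg1 was at 12.7, 12.8 and 12.2 CPM in mild cold, against 7.85, 10.1 and 9.67 CPM at room temperature. Its groups were apart by 2 CPM, with a log2 fold change of 0.45 (SE 0.13, edgeR adjusted p = 0.143). Psmg2 was at 20.9, 19.8 and 20.9 CPM in mild cold, against 14.5, 18 and 17.1 CPM at room temperature, also without overlap (log2 fold change 0.31, SE 0.11, edgeR adjusted p = 0.192). The partners Psmg3 and Psmg4, which act with that pair, were at 1.53 and 3.09 CPM in mild cold, against 1.65 and 2.73 CPM at room temperature. Of the chaperones of the cap's base, Psmd9 was at 14.2, 16.2 and 14.3 CPM in mild cold, against 13.5, 14.3 and 12.8 CPM at room temperature, which just overlapped (log2 fold change 0.14, edgeR adjusted p = 0.511). Psmd5 and Psmd10, also chaperones of the base, had log2 fold changes of -0.06 and -0.03.

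Other genes encode proteins that belong to or bind the proteasome. Of 15 such partners outside the symbol rule, 3 (20%) were higher at an unadjusted p under 0.05, where 9.11% of all tested genes were. 0 were lower, where 10.6% of all genes were, and 0 passed the adjusted p. The median log2 fold change was 0.14 (-0.12 with library totals, where 3 of the 15 were positive). Akirin2, which brings proteasomes into the nucleus, was at 32.2, 37.6 and 32.5 CPM in mild cold, against 26.6, 30.4 and 27 CPM at room temperature, without overlap (log2 fold change 0.28, edgeR adjusted p = 0.201). Zfand5, a proteasome-binding activator known from wasting muscle, was at 152.7, 175.7 and 164 CPM in mild cold, against 129.1, 149.2 and 127.4 CPM at room temperature (a log2 fold change of 0.28, edgeR adjusted p = 0.216). Both were above room temperature in every mild cold library. Sem1, the smallest cap subunit, was at 69.4, 81.3 and 68.3 CPM in mild cold, against 54.1, 64.4 and 62.2 CPM at room temperature, also without overlap (log2 fold change 0.28, edgeR adjusted p = 0.226). Txnl1, a thioredoxin bound to the cap, overlapped with a log2 fold change of 0.21, and Pomp, which matures the core, had 0.07.

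A list of genes around NRF1, which also holds Keap1 and Nfe2l2 of the NRF2 pathway, had a median log2 fold change of -0.23. This was over 10 tested genes (-0.49 with library totals). At an unadjusted p under 0.05, 1 (10%) was higher, which was Keap1, where 9.11% of all tested genes were. 2 (20%) were lower, where 10.6% of all genes were, and 0 passed the adjusted p. With library totals 8 of the 10 were lower at that p, where 27.1% of all genes were. Keap1, which marks NRF2 for degradation, was at 31.2, 33.2 and 32.8 CPM in mild cold, against 26.1, 26.4 and 24.5 CPM at room temperature, without overlap (log2 fold change 0.34, SE 0.08, edgeR adjusted p = 0.118). Ddi2, the protease that releases active NRF1, was at 61.4, 59.3 and 59.9 CPM in mild cold, against 84.2, 73.4 and 67 CPM at room temperature. It was lower in every mild cold library (log2 fold change -0.31, edgeR adjusted p = 0.17). Ogt, which modifies NRF1 with sugar, was at 170.4, 188.1 and 176.3 CPM in mild cold, against 213.6, 206.4 and 218.6 CPM at room temperature, also without overlap (log2 fold change -0.26, edgeR adjusted p = 0.198). Syvn1, an endoplasmic reticulum ubiquitin ligase that acts on NRF1, had a log2 fold change of -0.41 with overlap (edgeR adjusted p = 0.268). Nfe2l1 itself averaged 435.9 CPM in mild cold, against 384.8 CPM at room temperature, with overlap.

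Of 16 ubiquitin genes, VCP partners and shuttle factors, 2 (12.5%) were higher and 1 (6.25%) lower at an unadjusted p under 0.05. Among all tested genes these shares were 9.11% and 10.6%. 0 passed the adjusted p, and the median was 0.06 (-0.20 with library totals, where Uba6 passed the adjusted p, as did 2.12% of all genes). Faf1, a VCP cofactor, was at 66.7, 70.9 and 72 CPM in mild cold, against 53, 62.2 and 57.3 CPM at room temperature (a log2 fold change of 0.28, edgeR adjusted p = 0.168). Uba6, a ubiquitin-activating enzyme, was at 18.6, 16.9 and 17.5 CPM in mild cold, against 23.3, 25 and 21.7 CPM at room temperature (a log2 fold change of -0.40, edgeR adjusted p = 0.115). The groups of Faf1 and Uba6 did not overlap. Rad23b, a shuttle that carries ubiquitinated proteins to the cap, had a log2 fold change of 0.20 without overlap.

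Class I antigen processing genes and their inducers, which act beside the immunoproteasome, had a median log2 fold change of -0.18 over 16 tested genes. 13 of the 16 were negative, as were 8757 of all 16757 genes tested. At an unadjusted p under 0.05, 0 of the 16 were higher or lower, where 9.11% of all tested genes were higher and 10.6% lower. With library totals, where the median of all genes was -0.27, their median was -0.45. There 11 of the 16 were lower at an unadjusted p under 0.05, a larger share than the 27.1% of all genes. The class I heavy chain gene H2-K1 was at 139.7, 216.9 and 157.4 CPM in mild cold, against 272.8, 195.5 and 224.5 CPM at room temperature (a log2 fold change of -0.43, edgeR adjusted p = 0.276). H2-D1, another class I heavy chain of closely related sequence, so that reads may be split between them, was at 207.6, 306.9 and 228.6 CPM in mild cold, against 336.7, 265.4 and 333.3 CPM at room temperature (a log2 fold change of -0.33, edgeR adjusted p = 0.339). In both, mild cold 2 was the highest of its group and room temperature 2 the lowest, the order that the ratios of the catalytic pairs had. Calr, the chaperone that loads class I molecules, overlapped with a log2 fold change of -0.27. Irf8, a transcription factor of macrophages and dendritic cells, was at 6.76, 6.97 and 4.49 CPM in mild cold, against 7.42, 7.86 and 11.3 CPM at room temperature, without overlap (log2 fold change -0.55, edgeR adjusted p = 0.26). Irf1, another gene of the list, went the other way. Its mild cold values of 23.02, 35.26 and 23.07 CPM exceeded the room temperature values of 22.78, 21.35 and 21.76 CPM, narrowly for 2 libraries. The estimate was 0.30 on the log2 scale (SE 0.17, edgeR adjusted p = 0.379). Without overlap, 1 of the 16 was thus higher (6.25%) and 1 lower, where 12% and 13.1% of all tested genes were. Ifng, the inducer itself, was at 0 in the mild cold libraries and at 0.0213, 0 and 0.0544 CPM at room temperature. These values were near or below the floor of 3 counts, and the gene was removed by the filter and not tested.

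Libraries of 1 group differed from each other across the family. Summed over all members, the proteasome took 3413, 3445 and 3360 CPM in mild cold, against 2859, 3256 and 2943 CPM at room temperature. Room temperature 2 was the highest of its group in 35 of the 46 tested members and room temperature 1 the lowest in 28. Mild cold 2 was the highest of its group in 32. The class median of log2 CPM, centred on each gene's mean over the libraries, was 0.11, 0.18 and 0.06 for the core in mild cold, against -0.19, 0.02 and -0.14 at room temperature. For the cap it was 0.08, 0.10 and 0.05 in mild cold, against -0.15, 0.02 and -0.11 at room temperature. For the immunoproteasome it was -0.07, 0.30 and -0.07 in mild cold, against 0.05, -0.08 and 0.02 at room temperature. With TMM scaling the groups were thus mixed for the immunoproteasome and apart for the core and the cap. The gap was narrow, from 0.02 in room temperature 2 to 0.06 (core) and 0.05 (cap) in mild cold 3. With library totals the median log2 fold changes were -0.037 for the core and -0.12 for the cap, against -0.27 for all genes.

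**Figure D4:**
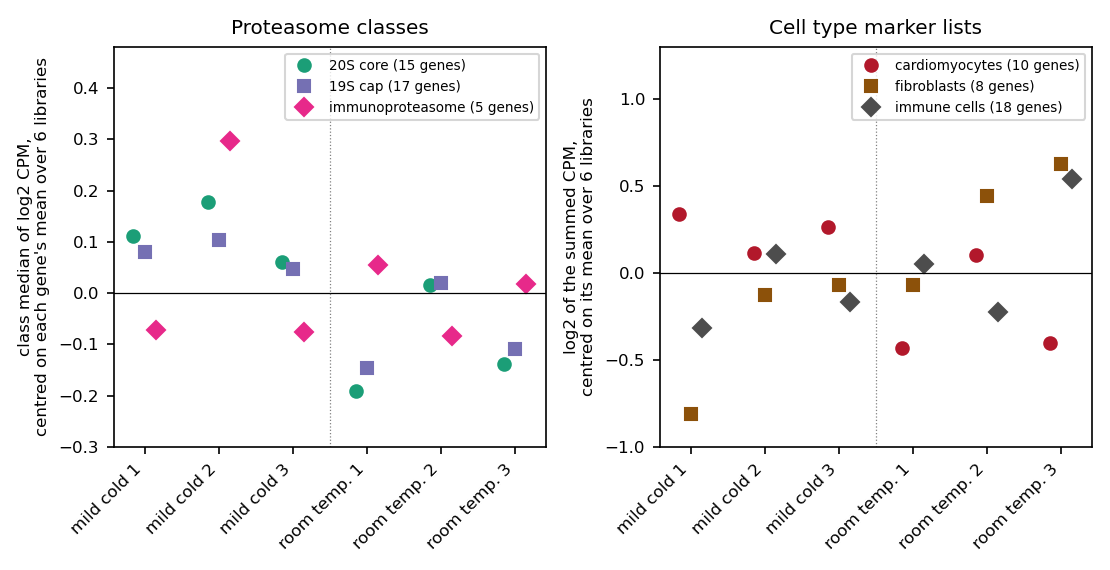
Left, the median over the genes of a class of log2 CPM, centred on each gene's mean over 6 libraries, by library. Right, the log2 of the summed CPM of cell type marker lists, centred in the same way. Room temperature 2 is the room temperature library nearest to mild cold for the core, the cap and the cardiomyocyte markers.

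Cell type markers also differed between the libraries. The 10 cardiomyocyte markers summed to 42070 to 49170 CPM in mild cold, against 28820 to 41600 CPM at room temperature, where room temperature 2 held 41600 CPM and the others at most 29400 CPM. All 10 had positive log2 fold changes with TMM scaling and with library totals. 6 (60%) were higher without overlap, where 12% of all tested genes were. The 8 fibroblast markers summed to 2003 to 3350 CPM in mild cold, against 3344 to 5414 CPM at room temperature. All 8 had negative log2 fold changes, and 4 of the 8 were lower without overlap, where 13.1% of all tested genes were. The 18 immune markers summed to 484.9 to 650.5 CPM in mild cold, against 516.4 to 876.9 CPM at room temperature. Lyz2, a macrophage and neutrophil gene, made up 51.6% of that sum, and the other 17 summed to 242.1, 292.8 and 267.1 CPM in mild cold, against 276.2, 281 and 430.1 CPM at room temperature. Of the 17 tested, 15 had negative log2 fold changes, 6 of them without overlap, where 13.1% of all tested genes were lower without overlap. The other 2 were the neutrophil genes S100a8 and S100a9. S100a8 was at 1.72, 4.02 and 0.656 CPM in mild cold, against 0.128, 0.359 and 0.326 CPM at room temperature, without overlap (log2 fold change 2.96, edgeR adjusted p = 0.116). S100a9 was at 1.98, 5.04 and 0.353 CPM in mild cold, against 0.340, 0.431 and 0.449 CPM at room temperature, with overlap (log2 fold change 2.58, edgeR adjusted p = 0.167). None of the 18 was at 0 in every library, and Cd3e was at 0 in mild cold 3. Mild cold 2, where Psmb8 was also highest, held the highest immune sum of its group with and without Lyz2. At room temperature the lowest sum was in room temperature 2, where Psmb8 was also lowest, but without Lyz2 it was in room temperature 1. Endothelial markers summed to 1654 to 2312 CPM in mild cold, against 1541 to 2246 CPM at room temperature. Of the 7, 6 had positive log2 fold changes with TMM scaling (3 with library totals), with a median of 0.25. 4 (57.1%) were higher without overlap, where 12% of all tested genes were. The exception was Fabp4, which made up 48.9% of the sum and had -0.17, and the other 6 summed to 1012, 1193 and 1026 CPM in mild cold, against 730.7, 935.3 and 1029 CPM at room temperature. Red cell markers summed to 818.6 to 1027 CPM in mild cold, against 391.5 to 923 CPM at room temperature. Atrial markers summed to 145.8 to 357.9 CPM in mild cold, against 607 to 4919 CPM at room temperature, with room temperature 1 the highest. Nppa made up 75.5% of the atrial sum. Without Nppa the sum was 0.91, 1.37 and 1.765 CPM in mild cold, against 1730, 3.235 and 2.01 CPM at room temperature. Brown fat markers summed to 19.3 to 112.9 CPM in mild cold, against 115.6 to 1260 CPM at room temperature, again highest in room temperature 1. Ucp1 was at 184.8 CPM in that library and at most 0.0504 CPM in the others. Cidea, at 19 and 19.3 CPM, was nearly all of the sum in mild cold 1 and 2. In room temperature 2 and 3 the largest part was Cfd, at 69 and 253.7 CPM. The part of cell makeup in the proteasome values was not tested.

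Some members share sequence with other genes, so their counts are less certain. In the GENCODE M21 transcripts 25 of the 47 members had no 75-base stretch in common with another gene. The largest shares were 36.8% of the stretches of Psmb5 (mainly with a processed pseudogene), 35.2% of Psma5, 24.3% of Psmd9, 22.9% of Psme2 and 14.3% of Psma3. Psme2 shares its stretches with Psme2b, a near copy outside the symbol rule, which was at 3.76, 4.91 and 4.19 CPM in mild cold, against 2.85, 4.27 and 4.46 CPM at room temperature. The strand setting of the counting is not given in the sources used here, so reads of genes that overlap on opposite strands cannot be told apart. Psmb9 overlaps Tap1, a peptide transporter subunit, in 5.79% of its exon bases, and Tap1 was at 10, 18.1 and 8.47 CPM in mild cold, against 13.9, 13.1 and 13.8 CPM at room temperature. Psmb7 overlaps Nek6 in 11.8% of its exon bases and Psmb8 overlaps an antisense gene with 0 counts in all libraries. Psmb6, Psmb10 and Psmc4 shared no 75-base stretch and overlapped no other gene.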

How the data were processed

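The authors deposited raw counts per gene, whole numbers without normalization, made with featureCounts 2.0.3 on the build GRCm39 per the submitters' processing notes. What is not given in the sources used here includes the aligner, the strand setting, how pairs were counted and the annotation release. Of low counts (1 to 10), 71.9% to 78.3% were even, as happens if mates are counted singly. Symbols, lengths and overlaps came from GENCODE M21, matched on the gene ID without its version (55141 of 55401 IDs), and promoters from RefSeq tables on GRCm38.p6, so gene coordinates are not given on the files' build. Psme2b and Psmc3ip carry more than a number and were left out of the members.

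All genes were fitted together in R 4.3.3 with edgeR 4.0.16: default expression filter by group, TMM scaling, a quasi-likelihood test (2-sided) with the group alone, and Benjamini-Hochberg adjustment over the 16757 genes kept. SE and 95% intervals came from that test. The steps were tested on simulated data. Alternatives were other scalings and filters, DESeq2 1.42.0, limma-voom (limma 3.58.1), the replicate number as a block, each library left out, and the deepest library of each group left out. Length from the union of all exons, and marker sums without the most abundant gene of a list, were added after seeing the data.

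The members, classes, pathway lists and cell type markers were chosen with earlier results of these data known, and so was the rule for named genes: the immunoproteasome genes, Psmb5, Psmb6 and Psmb7, the 3 members with the smallest p in each other class, and the 4 with the smallest p in each pathway list. A gene that this rule named among the ubiquitin genes is not reported here. Genes named outside that rule, such as Psmb1, Pomp and Nfe2l1, were chosen after their values were seen. Replicate numbers were compared across groups and did not pair the libraries.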

Additional observations from a re-analysis of the deposited data

How the results depend on the processing

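No alternative other than the DESeq2 Wald test, which called 2, put a member past the adjusted threshold. With library totals alone, 0 members were higher (2.3% of all genes) and 2 (4.35%) lower (27.1% of all genes) at an unadjusted p under 0.05, and the medians were -0.037 (core), -0.12 (cap), -0.25 (immunoproteasome) and -0.27 (all genes). That scaling also turned the sign of Psmb10 (-0.13), Psme1 (-0.040), Psme2 (-0.25), Psma2 (-0.030), Psma6 (-0.056), Psma1 (-0.062), Psmd12 (-0.045), Psmd14 (-0.084), Psmd6 (-0.093), Psme3 (-0.076), Psmd9 (-0.12), Txnl1 (-0.049) and Rad23b (-0.049). Leaving out 1 library gave 2 to 22 members higher at an unadjusted p under 0.05, medians from 0.10 to 0.21 for the cap, from -0.06 to 0.18 for the immunoproteasome and from -0.036 to -0.0016 for all genes, and log2 fold changes from -0.31 to 0.11 for Psmb8, -0.52 to 0.18 for Psmb9, -0.00080 to 0.20 for Psmb10 and -0.061 to 0.084 for Psme2. Without the deepest library of each group, mild cold 1 and room temperature 3, 2 members (4.35%, below the 5.37% of all genes) were higher at an unadjusted p under 0.05. The immunoproteasome median was then 0.17, above the 0.14 of the cap and below the 0.22 of the core. Psmb8 was at 0.16, Psmb9 at 0.31 and the median of all genes at -0.00046. That median was -0.0093 with DESeq2 size factors, -0.0055 with TMM scaling without mitochondrial and haemoglobin genes, -0.061 without an expression filter and -0.00899 in the DESeq2 Wald test. The mean log2 ratio of Psmb8 to Psmb5 was -1.61 in counts and -3.53 with exon-union lengths, that of Psmb9 to Psmb6 was -3.45 in counts, and that of Psmb10 to Psmb7 was -0.26 with exon-union lengths. The cause of these shifts was not tested, beyond the scaling and lengths themselves. With the replicate block, 10 members (21.7%, against 7.13% of all genes) were higher at an unadjusted p under 0.05, without Psma2, Psmb7 and Psmd12, and 0 passed the adjusted threshold, as 0 did without it. Same-numbered libraries correlated at 0.11, -0.14 and -0.03 in their deviations from the group means, so the numbers are not taken to pair them. Depth limits Psma8, with 20 to 79 counts a library, and Psmb11, with at most 8.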
